A study of Mus musculus with 16 samples.

Results

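Transcripts of 10 genes of the mammalian circadian clock were followed in 16 libraries of mouse brain. The genes were chosen by symbol from the 43472 gene symbols counted: Arntl and Clock, the period genes Per1, Per2 and Per3, the nuclear receptor genes Nr1d1 and Nr1d2, and the PAR bZIP genes Dbp, Tef and Hlf. All 10 had a row in the counts and passed the filter on low counts in each comparison. The study set a Prepl knockout, a mouse model of Congenital Myasthenic Syndrome-22, beside mice deleted for PWS-IC, the imprinting centre that keeps paternal Prader-Willi genes active, and asked which expression changes they share. There were 4 groups of 4 libraries: Prepl knockout with its own WT, and PWS-IC deleted with a separate set of WT. The labels give brain as the tissue for every library. They give no strain, age, brain region, time of day or time of death for any group, no allele for the knockout, and no parent of origin for the deletion. They also do not say that the replicates were separate animals, so a p-value here speaks only for the scatter of these libraries, which may be technical in part. Xist and Y-linked transcripts marked 3 of the 4 Prepl wild types as female and 1 as male, and the 4 Prepl knockouts as male. By the same genes there were 2 males and 2 females in the PWS-IC wild types and as many of each in the deleted mice.

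The clock is a loop of transcription and repression that runs in nearly every cell of the body, brain cells included. CLOCK and BMAL1, the product of Arntl, bind E-boxes together and switch on the Per and Cry genes, whose proteins return to the nucleus and repress them. The same pair drives Nr1d1 and Nr1d2, which encode REV-ERB alpha and REV-ERB beta, receptors that repress Arntl through elements shared with the ROR receptors. Dbp, Tef and Hlf encode activators of the PAR bZIP family, which bind D-boxes and carry the rhythm to output genes. In a brain of a rodent kept on a light cycle, transcripts such as Dbp, Per1 and Nr1d1 rise and fall over the day, so the hour of sampling bears on their levels.

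The promoter letters of these genes were read for motifs that clock factors are known to bind. RefSeq start sites on GRCm38.p6 gave 14 windows, each of 250 bases before and 50 bases after a start, for 9 of the 10 genes; Per2 had no entry. The windows were searched on both strands for the E-box CACGTG, its variant CACGTT, the D-boxes TTATGTAA and TTACGTAA, the REV-ERB/ROR cores TAGGTCA and TGGGTCA, and the CRE TGACGTCA. The 6 stretches below are the parts of these windows that hold an E-box, D-box or REV-ERB/ROR core, with the matched letters in capitals and the strand of the gene read 5′ to 3′.
Tef, upstream start, chr15:81802498-81802597, plus strand: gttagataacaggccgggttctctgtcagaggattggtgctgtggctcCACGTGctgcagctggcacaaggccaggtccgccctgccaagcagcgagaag
Tef, downstream start, chr15:81811228-81811327, plus strand: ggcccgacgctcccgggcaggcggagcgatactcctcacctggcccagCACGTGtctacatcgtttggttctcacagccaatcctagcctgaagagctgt
Per1, upstream start, chr11:69098735-69098834, plus strand: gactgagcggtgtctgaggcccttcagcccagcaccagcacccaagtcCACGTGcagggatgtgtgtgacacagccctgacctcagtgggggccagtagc
Per3, chr4:151044794-151044893, minus strand: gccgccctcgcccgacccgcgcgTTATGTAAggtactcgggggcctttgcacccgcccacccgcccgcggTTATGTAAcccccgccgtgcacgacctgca
Arntl, chr7:113207461-113207560, plus strand: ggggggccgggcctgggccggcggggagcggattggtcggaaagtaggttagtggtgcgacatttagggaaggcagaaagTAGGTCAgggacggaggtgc
Nr1d1, chr11:98775354-98775453, minus strand: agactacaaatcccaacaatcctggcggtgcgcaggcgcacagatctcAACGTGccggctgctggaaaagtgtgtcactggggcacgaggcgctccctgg

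An E-box lay in 3 of the 14 windows and in 2 of the 9 genes, Tef and Per1. Among all 27025 genes with a window, 8.09% held it. In Tef the E-box was present at both annotated starts, at -127 to -122 from the upstream one and at -138 to -133 from the downstream one. The D-box TTATGTAA stood in the Per3 window at -205 to -198 and again at -158 to -151, and 1.11% of all genes held it. The core TAGGTCA lay inside the transcribed part of the downstream Arntl window, at 30 to 36, against 2.97% of all genes. Nr1d1 carried the variant CACGTT on the strand opposite the gene, so that its printed window reads AACGTG, at -28 to -23; 5.44% of all genes held that variant. Hlf was the member with a CRE, which 2.03% of all genes held. No window of a member held TTACGTAA or TGGGTCA, the letters of which lay in 0.126% and 4.57% of all genes. Clock, Nr1d2 and Dbp held none of the 7 motifs in these windows. A match is a description of the letters, and 300 bases leave out distal elements.

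**Figure D1:**
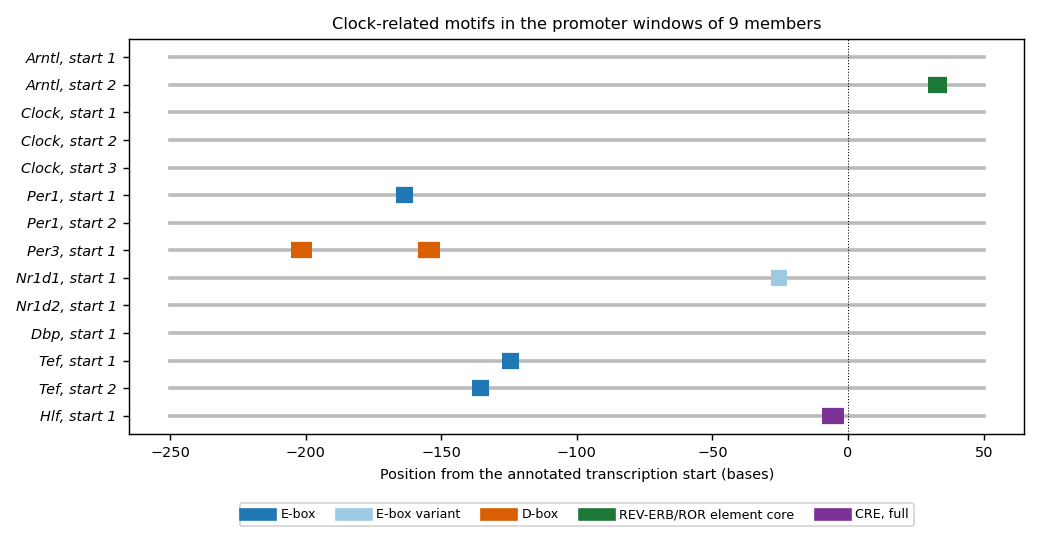
Positions of the searched motifs in the 14 promoter windows of the 9 member genes with a RefSeq entry, by distance in bases from the annotated start (x axis), with 1 line per window and 1 colour per motif. The E-boxes of Tef and Per1 sit between -166 and -122, the D-boxes of Per3 between -205 and -151, and the Arntl core past the start.

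Reads in genes numbered 3477624 to 5852716 per library, so 1 read was worth 0.171 to 0.288 CPM, the count of a gene divided by all reads in genes and put on a common scale. QuantSeq reads the 3′ end of each transcript, so counts do not grow with transcript length, and levels were compared within a gene only. The labels of the mutants held: Prepl averaged 34.8 ± 1.35 CPM in its wild types and 1.64 ± 0.453 CPM in the knockouts (SD, n = 4). Ndn, an imprinted gene of the Prader-Willi region, averaged 556 ± 11.1 CPM in the PWS-IC wild types and 4.30 ± 1.90 CPM in the deleted mice. The 9 neuronal markers summed to 5221 to 5802 CPM and the 7 astrocyte markers to 825 to 1162 CPM per library. Markers of glands that lie against the brain were near 0: the pineal genes summed to 0 to 1.83 CPM, with Asmt at 0 reads in all 16 libraries, and the pituitary genes to 1.39 to 4.60 CPM, with Prl and Fshb at 0 in all 16. The neuropeptide Vip, made by neurons of the suprachiasmatic nucleus and by cortical interneurons, stayed at 2.07 CPM or less. The list of suprachiasmatic and hypothalamic neuropeptide genes that holds Vip summed to 209 to 277 CPM per library. Avp, also on that list, read 3.37 to 16.7 CPM. In RNA from whole tissue, fewer cells of a type and less RNA per cell cannot be told apart.

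**Figure D2:**
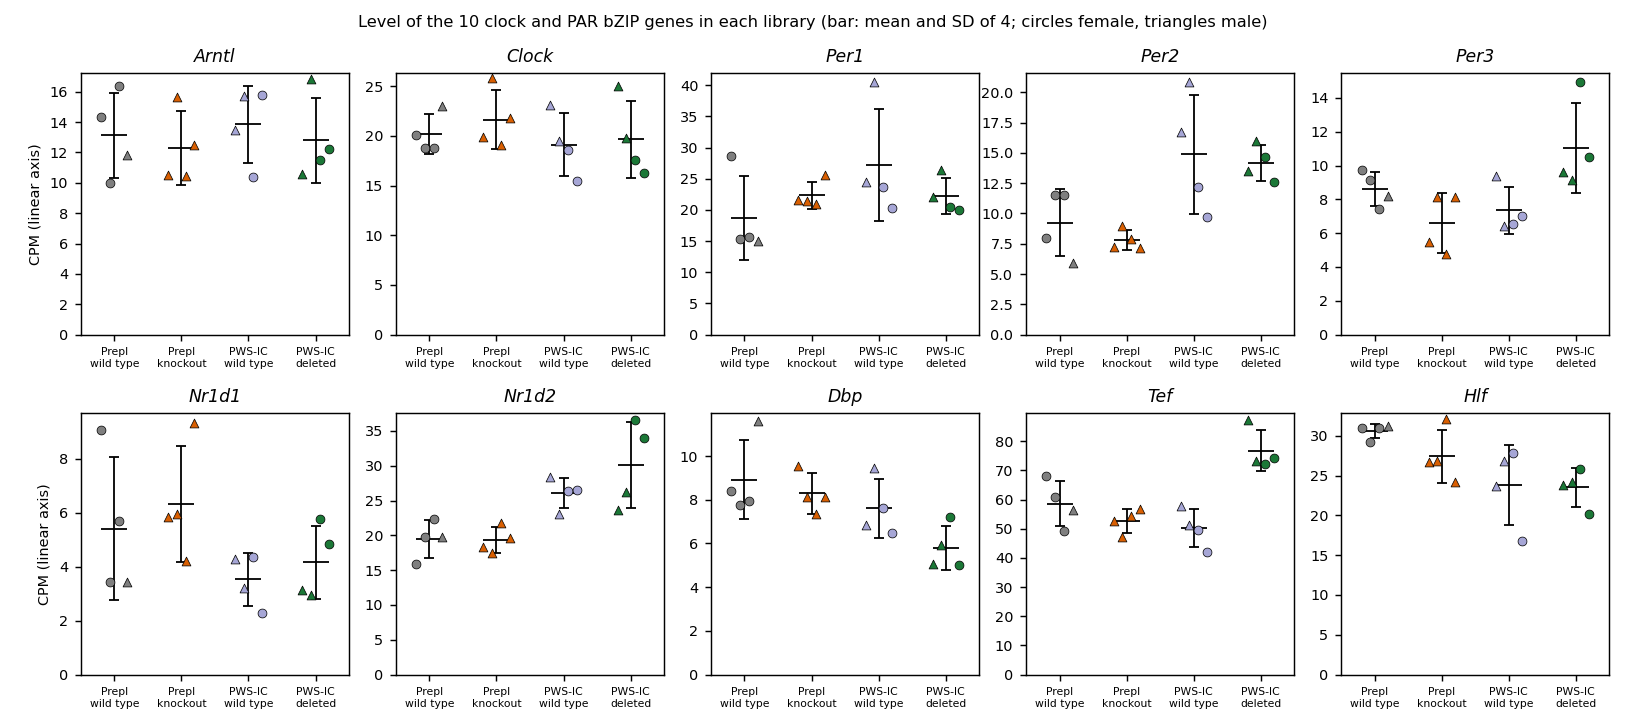
CPM of each of the 10 genes in each of the 16 libraries (circles female, triangles male), by group, with the group mean and SD (bar and whiskers) on a linear axis that starts at 0. Tef in PWS-IC deleted mice sits above the other groups at 72.2 to 87.3 CPM, whereas the libraries of different groups overlap for most of the other genes.

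Arntl and Clock, the activators of the loop, differed little between groups. Arntl ranged from 9.99 to 16.4 CPM in the Prepl wild types, 10.5 to 15.7 in the knockouts, 10.4 to 15.8 in the PWS-IC wild types and 10.6 to 16.9 in the deleted mice. The 4 ranges lie nearly on top of one another. Its log2 fold change was -0.06 ± 0.187 (SE) in the Prepl knockout, with a 95% interval of -0.45 to 0.32, and -0.10 ± 0.200 in the PWS-IC deletion (-0.52 to 0.31). Clock ranged from 18.8 to 23.0, 19.1 to 25.8, 15.4 to 23.1 and 16.2 to 25.0 CPM in the same order of groups. Its log2 fold changes were 0.14 ± 0.137 (-0.14 to 0.42) and 0.04 ± 0.175 (-0.33 to 0.40). Neither gene passed the test in a comparison, and the intervals still allow changes of up to about those bounds.

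Per1 encodes a repressor of CLOCK and BMAL1 and also responds quickly to light and stress signals. Its 4 Prepl wild types read 28.7, 15.3, 15.7 and 15.05 CPM and the 4 knockouts 21.6, 21.4, 20.9 and 25.6. The PWS-IC wild types read 24.4, 40.5, 23.7 and 20.4 CPM and the deleted mice 22.1, 26.4, 20.4 and 20.01. Replicate 1 of the Prepl wild types and replicate 2 of the PWS-IC wild types stood high in their groups, and each mutant group lay within or near the range of its controls. In the knockout Per1 gave 0.31 ± 0.173 (95% interval -0.04 to 0.67), with an edgeR quasi-likelihood adjusted p = 0.591. Without replicate 1 of the Prepl wild types the value was 0.58 ± 0.142 and the adjusted p = 0.0463 by edgeR, so 1 library decides that call. In the PWS-IC deletion it gave -0.29 ± 0.191 (-0.69 to 0.11).

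Per2, a second repressor of the same complex, separated the 2 series of mice more than it separated mutants from controls. The Prepl wild types read 7.96, 11.5, 11.6 and 5.90 CPM and the knockouts 7.21, 8.93, 7.88 and 7.15. The PWS-IC wild types read 16.7, 20.8, 12.2 and 9.71 CPM and the deleted mice 13.5, 15.96, 14.7 and 12.6. Of the 8 libraries of the PWS-IC series, 7 lay above every library of the Prepl series, and the exception was replicate 4 of the wild types. How many of all genes part the 2 series to this degree was not counted. The mutant effects were -0.22 ± 0.217 (-0.67 to 0.23) in the Prepl knockout and -0.07 ± 0.215 (-0.52 to 0.38) in the PWS-IC deletion.

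Per3, the third period gene, had 26 to 61 reads per library. It read 9.72, 9.13, 7.41 and 8.19 CPM in the Prepl wild types and 5.45, 8.13, 4.77 and 8.14 in the knockouts. The PWS-IC wild types read 9.40, 6.44, 6.55 and 7.04 CPM and the deleted mice 9.62, 9.12, 14.95 and 10.5. Of the deleted libraries, 3 lay above all 4 of their wild types and the fourth above 3 of them. The log2 fold change there was 0.57 ± 0.221 (0.11 to 1.04), which did not pass after adjustment (edgeR, adjusted p = 0.161). In the Prepl knockout it was -0.34 ± 0.218 (-0.79 to 0.11). The Per3 gene (chr4:151003652-151044665, minus strand) lies inside an annotated span of Camta1 on the same strand. Exons of the 2 genes were not compared, so whether they share reads is not known. Camta1 itself gave -0.01 ± 0.0672 in the knockout and 0.09 ± 0.0780 in the deletion.

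Nr1d2, which encodes REV-ERB beta, also followed the series of mice. The Prepl wild types read 15.9, 19.8, 22.4 and 19.8 CPM and the knockouts 18.3, 17.5, 21.8 and 19.7. The PWS-IC wild types read 28.4, 23.1, 26.4 and 26.5 CPM and the deleted mice 23.6, 26.2, 36.5 and 33.99. The 8 libraries of the PWS-IC series lay above the 8 of the Prepl series, with the closest values at 23.1 and 22.4. How many of all genes part the series in this way was not counted. Between the wild-type groups 23.8% of all genes were called, so such a separation need not be particular to Nr1d2. Within each series the mutant did not pass the test, at 0.02 ± 0.139 (-0.27 to 0.30) for the Prepl knockout and 0.21 ± 0.143 (-0.09 to 0.51) for the PWS-IC deletion.

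Nr1d1, the REV-ERB alpha gene, was the most weakly counted of the 10, with 12 to 47 reads per library. It spanned 3.43 to 9.06 CPM in the Prepl wild types, 4.22 to 9.33 in the knockouts, 2.28 to 4.37 in the PWS-IC wild types and 2.96 to 5.75 in the deleted mice. Counting alone gives a coefficient of variation of 17.5% to 23.2% at these depths, and the libraries of a group varied by 27.8% to 49.2%. The log2 fold changes were 0.28 ± 0.298 (-0.33 to 0.90) and 0.23 ± 0.322 (-0.44 to 0.90), intervals too wide to bound a moderate change. Its 3′ end, where QuantSeq reads fall, overlaps Thra on the opposite strand by 1075 bases. Thra had 110306 reads over the 16 libraries. The strand setting of the counting is not given in the sources used here, so how reads in the overlap were assigned is not known.

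Dbp encodes the PAR bZIP factor best known as a strong rhythmic output of the loop. The Prepl wild types read 8.40, 7.75, 7.93 and 11.6 CPM and the knockouts 9.54, 8.13, 7.33 and 8.14. The PWS-IC wild types read 6.83, 9.46, 7.64 and 6.47 CPM and the deleted mice 5.05, 5.93, 7.19 and 5.004. Of the deleted libraries, which held 21 to 29 Dbp reads each, 3 lay below all 4 of their wild types. The log2 fold change was -0.40 ± 0.239 with an interval of -0.90 to 0.10, and it did not pass (edgeR, adjusted p = 0.402). In the Prepl knockout it was -0.07 ± 0.198 (-0.48 to 0.34). Dbp overlaps Sphk2 on the opposite strand by 737 bases at its 3′ end. Sphk2 gave -0.50 ± 0.250 in the PWS-IC deletion and did not pass either (edgeR, adjusted p = 0.298).

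Hlf, the PAR bZIP gene named for hepatic leukemia factor, was even across the Prepl wild types at 30.9, 29.3, 31.0 and 31.2 CPM. The knockouts read 26.7, 26.8, 32.1 and 24.2 CPM, the PWS-IC wild types 23.7, 26.9, 27.8 and 16.8, and the deleted mice 23.8, 24.2, 25.9 and 20.2. Of the knockouts, 3 lay below every Prepl wild type and 1 above. The mutant effects were -0.12 ± 0.116 (-0.36 to 0.12) and -0.02 ± 0.162 (-0.36 to 0.32).

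Tef, which encodes thyrotroph embryonic factor, was the 1 member called in a mutant comparison. Its Prepl wild types read 68.1, 60.8, 49.3 and 56.4 CPM and the knockouts 52.6, 47.2, 54.5 and 56.8. The PWS-IC wild types read 57.8, 51.1, 49.7 and 41.9 CPM, whereas the deleted mice read 87.3, 73.2, 72.2 and 74.4. The 4 deleted libraries lay above the 12 others, which spanned 41.9 to 68.1 CPM, and each rested on at least 251 reads. How many of all genes separate the deleted libraries in this way was not counted. Group means were 50.1 ± 6.51 CPM in the PWS-IC wild types and 76.8 ± 7.10 CPM in the deleted mice (SD, n = 4). Tef rose by 0.62 ± 0.114 on the log2 scale, 1.54-fold, with a 95% interval of 0.38 to 0.86 (edgeR quasi-likelihood test, adjusted p = 0.00313). In the Prepl knockout its log2 fold change was -0.11 ± 0.100 (-0.32 to 0.09), with an edgeR adjusted p = 0.776. The difference between the 2 effects, tested as a contrast over the 16 libraries, was 0.74 ± 0.156 (0.42 to 1.05; edgeR, adjusted p = 0.0131). The gene lies at chr15:81802421-81826863 on the plus strand, as GENCODE M21 gives it. The E-boxes printed for it stand before the 2 RefSeq starts, and both lie inside that GENCODE span. Its 3′ end overlaps no other annotated gene.

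The libraries of the PWS-IC series also differed in how many reads fell outside genes. That share was 11.4% to 13.7% of the tabled reads in the PWS-IC wild types and 17.7% to 20.1% in the deleted mice, with no overlap, against 15.98% to 19.6% in the Prepl wild types and 16.1% to 19.2% in the knockouts. In 4 libraries of the Prepl series the share lay inside the range of the deleted mice, and there Tef read 47.2 to 68.1 CPM, below each deleted library. Those 4 differ from the deleted mice in series as well, so they cannot set the share apart from the series or the deletion. In 1 fit of the 16 libraries that took this share as a term, added after the data had been seen, the Tef change was 0.18 ± 0.237 (edgeR, adjusted p = 0.813). The contrast between the mutants was then 0.34 ± 0.242 (edgeR, adjusted p = 0.680), so neither call held. Most calls of other genes were lost as well. Over all 14392 genes the term left 25 called in the deletion, against 999 in the 16-library fit without it. In the contrast it left 14, against 112. The same fit put Per3 at 0.13 ± 0.494, Per1 at -0.71 ± 0.449 and Nr1d1 at -0.78 ± 0.696 in the deletion. Within the PWS-IC series the share and the deletion cannot be told apart. Transcripts of tissues around the brain also moved in this comparison. Blood cell genes fell in 4 of 6, with sums of 1798 to 3972 CPM in the wild types and 1205 to 1630 in the deleted mice. Meningeal fibroblast markers fell in 5 of 8 (635 to 1306 against 556 to 638 CPM). Choroid plexus markers fell in 3 of the 7 tested (1441 to 2216 against 433 to 1754 CPM). The 1754 CPM belonged to replicate 4 of the deleted mice. Microglial and striatal markers each fell in 1 of 6. Neuronal (0 of 9), astrocyte (0 of 7), endothelial (0 of 7) and cerebellar (0 of 6) markers had none called, where 4.52% of all genes were. Their part in the Tef result was not tested.

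**Figure D3:**
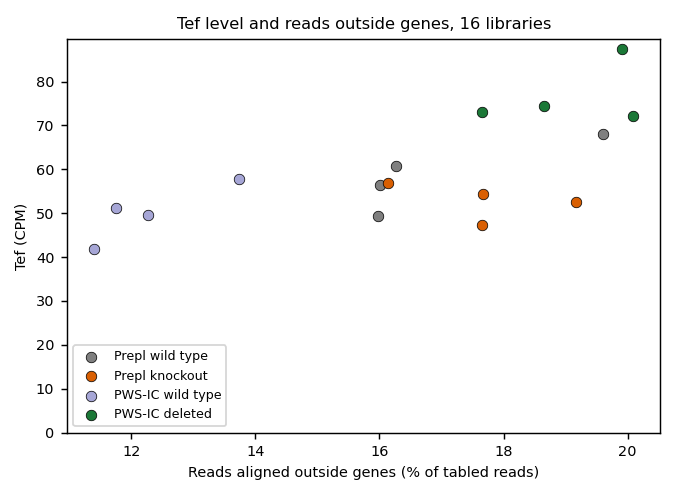
Tef in CPM (y axis) against the percent of tabled reads that aligned outside genes (x axis), 1 point per library, coloured by group. The 4 PWS-IC deleted libraries lie above the other 12 in Tef, while the PWS-IC wild types hold the lowest shares. The 12 include 4 libraries, all of the Prepl series, whose share falls between 17.7% and 19.6%.

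Counted over the members, 0 of the 10 genes were called in the Prepl knockout. Of the 13722 genes tested in that comparison, 0.262% were called at an adjusted p under 0.05 (36 genes). The 0 of 10 is thus near the share of any genes. By unadjusted p, 0 of the 10 were under 0.05, where 1294 of the 13722 genes were. DESeq2 and limma voom also called 0 of the 10. The median log2 fold change of the 10 was -0.06, against 0.0003 for all genes tested. Sex moved with this comparison, since the knockouts were male and 3 of the 4 wild types female. With sex as a term, which rests on the single male wild type, Per2 turned from -0.22 to 0.43. In that fit Dbp stood at -0.46 ± 0.284, Nr1d1 at 0.90 ± 0.508 and Per1 at 0.60 ± 0.283, each further from 0, and no member was called.

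In the PWS-IC deletion 1 of the 10 was called, Tef, where 4.52% of 13636 genes were called. The median of the members was 0.01, against -0.01 for all genes tested, and 5 of the 10 lay above 0. The PAR bZIP genes did not move together: Tef rose, while Dbp stood at -0.40 and Hlf at -0.02, neither past the test. In the contrast between the mutants 0.778% of 14392 genes were called and Tef was 1 of 10. Per3 came next there at 0.92 ± 0.307 (edgeR, adjusted p = 0.190), followed by Per1 at -0.59 ± 0.280 (edgeR, adjusted p = 0.407).

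**Figure D4:**
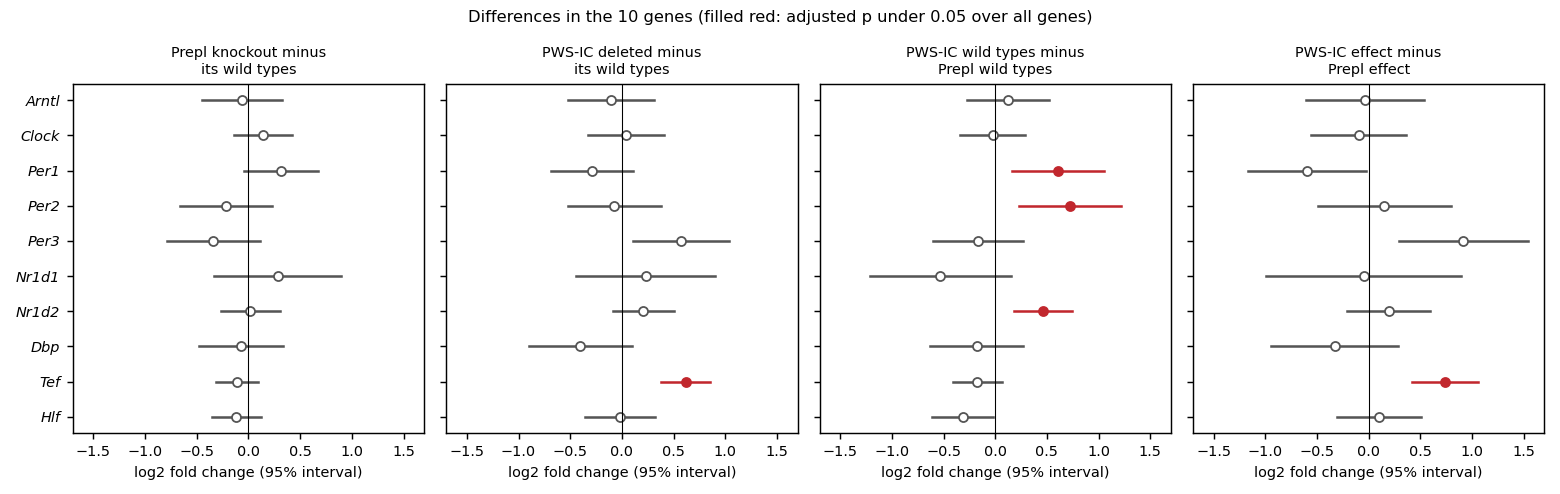
Log2 fold change (x axis) of each of the 10 genes in the Prepl knockout, in the PWS-IC deletion, between the wild-type groups and in the contrast between the mutants, with 95% intervals as bars and filled red points for an adjusted p under 0.05. Tef is the filled point in the PWS-IC deletion and in the contrast, Per1, Per2 and Nr1d2 are filled between the wild-type groups, and no point is filled in the Prepl knockout.

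The 2 wild-type groups carry no mutation, and comparing them asks whether the clock stood alike in the 2 series of mice. They are the controls of the mutant comparisons above, so these values are not independent of those. Per1, Per2 and Nr1d2 were higher in the PWS-IC wild types, and 0 of the 10 were lower. Over all 13756 genes tested 23.8% were called (3275 genes, 1624 higher), so 3 of 10 is near the share of any genes. Per2 was 0.73 ± 0.238 higher, 1.65-fold (edgeR, adjusted p = 0.0294), with 3 of the 4 PWS-IC wild types above each Prepl wild type. Per1 was 0.61 ± 0.214 higher, 1.52-fold (edgeR, adjusted p = 0.0417), with the groups overlapping. Nr1d2 was 0.46 ± 0.137 higher, 1.38-fold (edgeR, adjusted p = 0.0167), in 4 of 4 libraries. Hlf was lower in 4 of 4 libraries at -0.31 ± 0.143 but did not pass (edgeR, adjusted p = 0.118). Separation of libraries was not counted over all genes, so the 4 of 4 of Nr1d2 and Hlf have no share beside them. The other members gave -0.53 ± 0.329 for Nr1d1, -0.18 ± 0.215 for Dbp, -0.17 ± 0.210 for Per3, -0.17 ± 0.115 for Tef, 0.13 ± 0.190 for Arntl and -0.02 ± 0.152 for Clock. The median of the 10 was -0.10, against -0.0013 for all genes tested.

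These 3 calls depended on the fit and on single libraries, but not to the same degree. Of 18 alternatives, Nr1d2 passed in 16, Per2 in 12 and Per1 in 9. With sex as a term Nr1d2 alone was called, with Per1 at 0.53 (edgeR, adjusted p = 0.0947) and Per2 at 0.63 (edgeR, adjusted p = 0.0797). With the outside-gene share as a term, the fit of 16 libraries called 378 of 14392 genes, against 3516 without the term. In the fit with the term 0 of 10 members were called. In that fit Per1 stood at 0.92 ± 0.353 (edgeR, adjusted p = 0.168), Per2 at 0.66 ± 0.392 (edgeR, adjusted p = 0.419) and Nr1d2 at 0.35 ± 0.245 (edgeR, adjusted p = 0.515). Without replicate 1 of the PWS-IC wild types 0 of the 10 were called, and without replicate 2 of that group, or replicate 4 of the Prepl wild types, 1 was. Without replicate 1, 2 or 3 of the Prepl wild types 2 were. Blood cell genes were higher in 5 of 6 in the PWS-IC wild types, at 1798 to 3972 CPM in sum against 661 to 1147 in the Prepl wild types. Choroid plexus markers were higher in 3 of 7. Of the neuronal markers 2 of 9 were lower, with sums of 5284 to 5586 CPM against 5585 to 5802. Of the 7 astrocyte markers 2 were lower and 1 higher, with sums of 935 to 1001 CPM against 860 to 1162. Microglial (1 of 7), endothelial (1 of 7) and meningeal (1 of 8) markers each had 1 gene lower, striatal markers 1 of 6 higher, and cerebellar markers 0 of 6 called. Over all genes tested 23.8% were called in this comparison. The neuronal, microglial, endothelial, meningeal and striatal counts are thus near the share of any genes. Whether the differences in markers move the clock genes was not tested. Time of sampling, litter, strain and handling cannot be told apart from the series.

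The remaining genes of the loop were described from a list of 12, of which 10 were tested in the Prepl knockout and 11 in the other comparisons. In the knockout 0 of 10 were called and in the deletion 0 of 11, with median log2 fold changes of -0.06 and 0.04. The smallest p belonged to Timeless in the knockout, at -0.52 ± 0.220 (edgeR, adjusted p = 0.458), and to Rora in the deletion, at 0.15 ± 0.123 (edgeR, adjusted p = 0.571). Between the wild-type groups 1 was higher and 1 lower, with a median of -0.08. Cry1, which encodes the cryptochrome partner of the PER proteins, was 0.69 ± 0.175 higher in the PWS-IC wild types (edgeR, adjusted p = 0.00608). Cry1 read 16.9 to 22.4 CPM in the Prepl wild types, 16.1 to 24.7 in the knockouts, 22.8 to 41.9 in the PWS-IC wild types and 26.6 to 33.97 in the deleted mice. Rorb, a ROR receptor that acts on the elements REV-ERB proteins use, was lower at -0.53 ± 0.101 (edgeR, adjusted p = 0.000545). Its levels were 75.8 to 103 CPM in the Prepl wild types and 53.0 to 62.6 CPM in the PWS-IC wild types. Cry2, at -0.08 ± 0.138, did not pass.

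**Figure D5:**
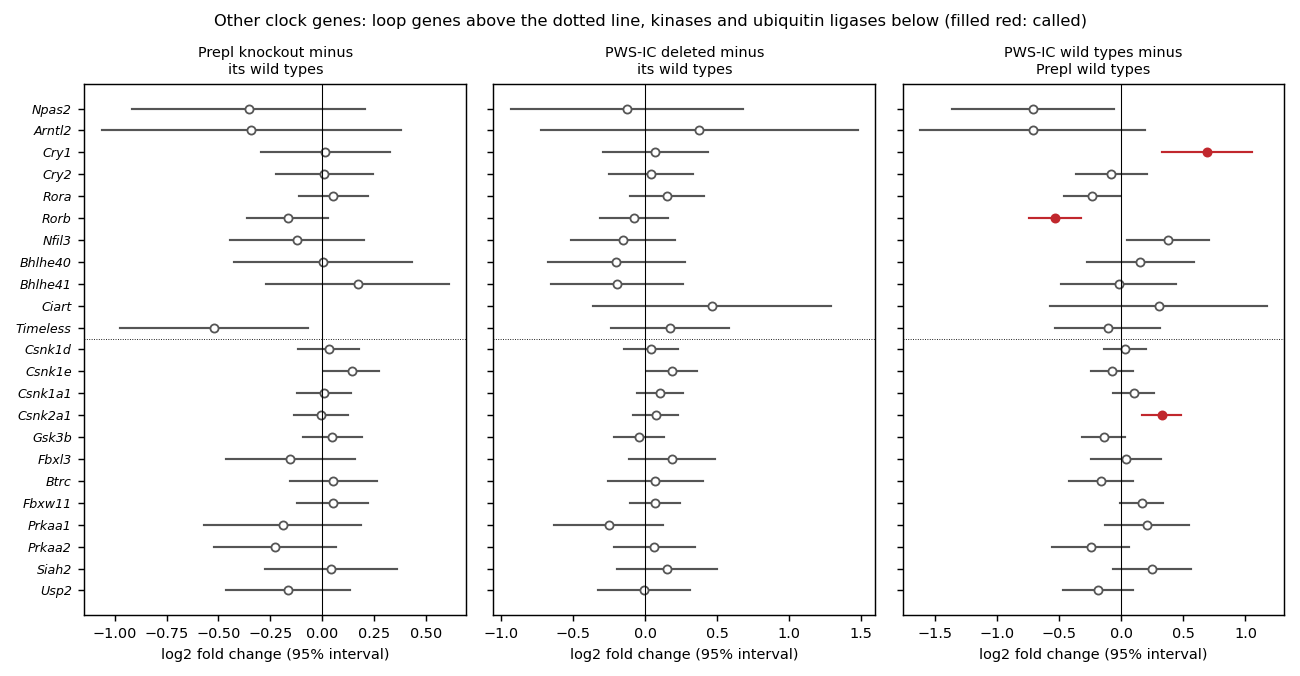
Log2 fold change (x axis) with 95% intervals of the other clock loop genes tested (above the dotted line) and of the kinases and ubiquitin ligases of clock proteins (below it), in the Prepl knockout, in the PWS-IC deletion and between the wild-type groups. Filled red points mark an adjusted p under 0.05: Cry1 at 0.69, Rorb at -0.53 and Csnk2a1 at 0.33, each between the wild-type groups.

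Of the kinases and ubiquitin ligases that act on clock proteins, 0 of 12 were called in either mutant. Csnk1e, the casein kinase that marks PER proteins for destruction, had the smallest p in both, at 0.14 ± 0.0646 in the knockout (edgeR, adjusted p = 0.4996) and 0.19 ± 0.0845 in the deletion (edgeR, adjusted p = 0.243). Between the wild-type groups Csnk2a1, a casein kinase 2 subunit, was 0.33 ± 0.0749 higher (edgeR, adjusted p = 0.00294). It was the 1 of 12 called there, where 23.8% of all genes were. Of the listed clock outputs, which include Nr1d1 and Nr1d2, 0 of 11 were called in the knockout and 0 of 13 in the deletion. Pnpla2, a triglyceride lipase, was 0.63 ± 0.195 higher in the PWS-IC wild types (edgeR, adjusted p = 0.0217) and Nr1d2 was the other output called there. Those are 2 of 13 outputs, against 23.8% of all genes. Suprachiasmatic and hypothalamic neuropeptide genes gave 0 of 11 called in each of these 3 comparisons, with medians of -0.23, 0.04 and -0.06. The smallest p there belonged to Oxt in the knockout (-0.52 ± 0.295) and between the wild types (-0.81 ± 0.335), and to Grp in the deletion (-0.45 ± 0.178).

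Signals that are known to act on clock genes were read from 3 further lists. Glucocorticoid-responsive genes gave 0 of 12 called in either mutant, with the smallest p for Nfkbia in the knockout (0.29 ± 0.108) and Sgk3 in the deletion (-0.55 ± 0.227). Between the wild-type groups Nfkbia was 0.59 ± 0.0984 higher and Sgk3 0.68 ± 0.221 higher. Immediate early genes of neurons gave 0 of 15 in the knockout, where Jun stood at 0.18 ± 0.0918, and 0 of 13 in the deletion, where Nr4a3 stood at -0.43 ± 0.155. Ier5 was the 1 of 14 called between the wild types, at 0.42 ± 0.125. Of the 13 temperature-responsive and heat shock genes 0 were called in the knockout. In the deletion 2 of 13 rose, the chaperone genes Hsp90ab1 (0.50 ± 0.0640) and Hspe1 (0.65 ± 0.0921), where 4.52% of all genes were called. The contrast between the mutants called 1 of 13, Hsp90ab1 at 0.38 ± 0.0906, where 0.778% of all genes were called. For these genes too, the deletion cannot be told apart from the share of reads outside genes within the PWS-IC series. Between the wild-type groups Cirbp, a cold-inducible RNA-binding protein gene, was 0.44 ± 0.0979 higher and Dnajb1 0.37 ± 0.109 higher, while Hspa8 (-0.23 ± 0.0749) and Hsph1 (-0.26 ± 0.0894) were lower. Of the 3 lists, 2 of 12, 1 of 14 and 4 of 13 genes were called between the wild-type groups. Over all genes tested that share was 23.8%. Whether the listed genes moved with the clock genes was not tested.

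Whether libraries of 1 group vary together in these genes was read from pairs. The 10 genes make 45 pairs, and each pair was correlated over the 16 libraries after the group means were taken out of log2 CPM. After adjustment over the 45 pairs 0 were called, and 2 had an unadjusted permutation p under 0.05. Pearson's r ran from -0.59 to 0.56 with a median of 0.10, and 33 of the 45 were above 0. Per1 and Nr1d2 gave r = -0.59 and Spearman's rho = -0.59 (permutation p = 0.0185, adjusted p = 0.704), and r = -0.42 without the 2 libraries farthest from the median of Per1. Per3 and Nr1d1 gave r = 0.56 and rho = 0.44 (permutation p = 0.0313, adjusted p = 0.704), and r = 0.46 without the 2 farthest. With 12 to 61 reads per library for Nr1d1, Dbp and Per3, counting noise limits what these pairs can show.

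The genes most like a member were taken by Pearson's r over the same 16 libraries, among 10140 genes above a floor on mean log2 CPM. Members were left out of the ranking. The ranking is a description with no test, since the values were picked for their size. For Dbp the highest were Gm20760 (r = 0.87), Bola3 (0.85), Ebf3 (0.79), Otx1 (0.79) and Terf2ip (0.77), and the lowest 4933434E20Rik (-0.83), Cux2 (-0.81), Polr3a (-0.81), Wbscr22 (-0.80) and Uba3 (-0.80). For Arntl the highest were Lin7c (0.78), Rnf169 (0.78), Iqsec3 (0.76), Dad1 (0.75) and Gdap1l1 (0.74), and the lowest Cdca8 (-0.91), Fam184a (-0.87), Zfp286 (-0.83), Prmt3 (-0.79) and Itga6 (-0.79). None of these 20 genes is on the list of other loop genes, of which weakly counted ones such as Arntl2 lay under the floor. For Tef, a case added after its values were seen, the highest were Zfp36l1 (0.85) and Slc4a4 (0.85) and the lowest Rpl23 (-0.83) and Wnt7a (-0.83).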

How the data were processed

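RNA of 16 mouse brain libraries was measured by poly(A)-capture 3′ sequencing (Lexogen QuantSeq, per the labels' protocols). The authors deposited whole-number read counts per gene symbol for each library; HISAT2, HTSeq and mm10 are named in the submitters' processing notes, whereas versions, annotation and strand setting were not given in the sources used here. The 5 totals that name no gene stayed out of library sizes and tests; 11.4% to 20.1% of the tabled reads had aligned outside genes. Groups follow the sample titles. The 10 members, the gene lists and the tests were chosen with earlier results of these data known.

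Each comparison was fitted on its own 8 libraries with edgeR 4.0.16 in R 4.3.3 (filterByExpr with a minimum count of 10 and minimum total of 15, TMM, quasi-likelihood F-test, Benjamini-Hochberg over all genes tested, threshold 0.05), and the contrast between the mutants on all 16. The SE is the absolute log2 fold change over the square root of F. CPM is counts over reads in genes. Overlap of libraries between groups was read for the 10 members only, not over all genes. Pairs of members used log2 CPM (prior count 2), with group means removed and 100000 permutations of libraries within groups. DESeq2 1.42.0, limma 3.58.1 voom, other normalizations and filters, terms for sex and replicate number, and leaving out each library were alternatives; the term for reads outside genes was added after the data had been seen. The text names the 10 members, the targeted genes, and of each list the called genes (at most 4) or the gene with the smallest p. For Dbp and Arntl it names the 5 most and 5 least alike genes. The result of 1 marker list is not reported here. Scripts were tested on simulated data. Coordinates come from GENCODE M21 on GRCm38, promoters from RefSeq. Depths give 12 to 431 reads per member and library, so small changes of Nr1d1, Dbp and Per3 were not detectable.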

Additional observations from a re-analysis of the deposited data

Results flagged for a closer look

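Each of the 10 genes was checked for a library far from the other 3 of its group, 40 groups of 4 in all; chance gives about 1 in 20, and 5 were found. In the Prepl wild types Per1 was high in replicate 1, at 28.7 CPM against a median of 15.5, Dbp was high in replicate 4, at 11.6 against 8.16, and Hlf was low in replicate 2, at 29.3 against 31.0. In the knockouts Per1 was high in replicate 4, at 25.6 CPM against 21.5. In the deleted mice Tef was high in replicate 1, at 87.3 CPM against 73.8. Tef also responded differently in the 2 mutants, with a contrast of 0.74 on the log2 scale (edgeR, adjusted p = 0.0131), a call that did not hold in the fit that took the outside-gene share as a term.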

How the results depend on the processing

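Tef in the PWS-IC deletion passed in 17 of 18 alternatives and the contrast between the mutants in 24 of 25; the exception was the term for reads outside genes (adjusted p up to 0.813 and 0.680 by edgeR), which left 0 members called in each and 0 between the wild types. Between the wild types, a sex term left 1 member called, and upper-quartile factors and DESeq2 left 2 each; leaving out single libraries gave 0 to 3 there and 0 to 1 in the Prepl knockout. Over all genes, calls ranged from 6 to 156 (Prepl), 25 to 1119 (PWS-IC), 378 to 3552 (wild types) and 14 to 235 (contrast) across the alternatives, against 36, 616, 3275 and 112. Several uncalled members changed sign: with a sex term, Arntl 0.085, Clock -0.062, Per2 0.43 and Nr1d2 -0.0052 in the knockout and Arntl 0.052 and Clock 0.18 in the contrast. With the term for reads outside genes they were Arntl 0.28, Clock -0.19, Per2 0.033 and Nr1d1 -0.78 in the deletion, Arntl -0.14, Clock 0.13, Per3 0.13, Nr1d1 0.19 and Tef 0.13 between wild types, and Arntl 0.31 and Hlf -0.095 in the contrast. Without single libraries, values crossing 0 ranged from -0.20 to 0.070 (Arntl), -0.14 to 0.085 (Dbp) and -0.059 to 0.092 (Nr1d2) in the knockout; -0.11 to 0.15 (Clock), -0.16 to 0.059 (Hlf) and -0.23 to 0.14 (Per2) in the deletion; -0.13 to 0.073 (Clock) between wild types. In the contrast they were -0.21 to 0.11 (Arntl), -0.24 to 0.012 (Clock), -0.036 to 0.19 (Hlf), -0.39 to 0.18 (Nr1d1) and -0.0085 to 0.37 (Per2). The cause of these changes was not tested. The replicate number as a block left 0, 1, 3 and 1 members called, and Hlf turned to 0.0057 in the deletion; same-numbered libraries correlated at -0.07 to 0.18 and not every library best with its own number, so the numbers were not taken to pair the samples.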
